A study of Mus musculus with 20 samples.

Results

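The genes described here are 10 genes of fatty acid uptake, binding and activation: the fatty acid transport protein genes Slc27a1, Slc27a2 and Slc27a4, the fatty acid binding protein genes Fabp1, Fabp2 and Fabp4, and the long-chain acyl-CoA synthetase genes Acsl1, Acsl3, Acsl4 and Acsl5. They were picked by gene name, for the proteins they encode, out of the 38924 genes of the table, and each of the 10 names was found in 1 row. RNA-seq was performed on livers of male mice labelled C57/BL6 (C57BL/6J in the study's methods) that were purchased at 5 weeks of age, acclimated for 1 week and fed for 12 weeks. The study asked what the loss of thrombospondin-1 (TSP-1, encoded by Thbs1), a secreted matrix protein that activates TGF-β, does to liver fibrosis. There were 4 groups of 5 mice each: wild type on the control diet (NDWT), TSP-1 knockout on the control diet (NDKO), wild type on CDAHFD (HFWT) and TSP-1 knockout on CDAHFD (HFKO). CDAHFD is a choline-deficient diet, high in fat and with defined amino acids, that produces steatohepatitis with fibrosis in mice. The knockout is a whole-body line, the liver was taken with all its cell types, and the labels name no other allele or agent.

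Long-chain fatty acids enter hepatocytes with the help of membrane proteins, among them the fatty acid transport proteins (FATPs, the Slc27a genes), and are carried through the cytosol by fatty acid binding proteins (FABPs). Acyl-CoA synthetases then join them to coenzyme A, without which a fatty acid can be neither oxidized nor built into triglycerides and phospholipids, and several FATPs have this activity themselves. In the liver, hepatocytes are known for Fabp1, Slc27a2, Slc27a5, Acsl1 and Acsl5, of which Fabp1 and Acsl1 are textbook targets of the nuclear receptor PPARα, while Fabp4 is best known from adipocytes, macrophages and capillary endothelium.

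In the coordinates of the table (GRCm38) the genes were spread over 7 chromosomes. Slc27a2 (ENSMUSG00000027359.10) spans chr2:126552407-126588243 and Slc27a4 (ENSMUSG00000059316.2) chr2:29802634-29817522, and Slc27a1 (ENSMUSG00000031808.6) spans chr8:71568927-71586708. Fabp1 (ENSMUSG00000054422.7) spans chr6:71199827-71205023, Fabp2 (ENSMUSG00000023057.5) chr3:122895072-122899506 and Fabp4 (ENSMUSG00000062515.2) chr3:10204347-10208576 on the minus strand. Acsl1 (ENSMUSG00000018796.6) spans chr8:46471041-46536051, Acsl3 (ENSMUSG00000032883.9) chr1:78657825-78706987, Acsl5 (ENSMUSG00000024981.5) chr19:55253369-55296627 and Acsl4 (ENSMUSG00000031278.6) chrX:142317993-142390535 on the minus strand.

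RefSeq promoter windows (GRCm38.p6, 250 bases before to 50 after a transcription start) were on hand for 9 of the 10 genes, 12 windows in all, with no entry for Fabp4. The 100 bases before the start are shown for Slc27a2, Fabp1 and Acsl1, which had the highest FPKM of their families. All 3 lie on the plus strand: Slc27a2 at chr2:126552924-126553023, Fabp1 at chr6:71199779-71199878, and the first of 2 windows of Acsl1 at chr8:46470937-46471036. Capitals mark GGGCGG or its complement in Slc27a2 and Acsl1, and in Fabp1 a direct repeat of the type bound by PPAR and RXR pairs (AGGTCANAGGTCA, here on the minus strand with 1 mismatch) followed by TATAAA. The table's gene models of Fabp1 and Slc27a2 begin inside and before the stretch shown, respectively, since they include further starts.
Slc27a2: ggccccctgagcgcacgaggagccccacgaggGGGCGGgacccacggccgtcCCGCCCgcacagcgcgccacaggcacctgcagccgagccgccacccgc
Fabp1: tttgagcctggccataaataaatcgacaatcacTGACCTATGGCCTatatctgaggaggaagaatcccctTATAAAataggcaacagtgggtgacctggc
Acsl1: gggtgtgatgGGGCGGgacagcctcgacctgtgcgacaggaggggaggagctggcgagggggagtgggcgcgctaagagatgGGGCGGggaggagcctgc
Both strands were searched in all 32851 windows of the same length. The direct repeat with at most 1 mismatch was found in 0.554% of them, and among the 9 genes in Fabp1 alone, at bases −67 to −55 from the start. TATAAA was found in 13.6% of the windows and again in Fabp1 alone, at −30 to −25. GGGCGG was found in 35.7% of windows and in 6 of the 9 genes, CCAAT in 37.4% and in 5 of the 9, and the E-box CACGTG in 7.15% and in Slc27a1 alone. The GC content was 45% in the Fabp1 window and 38.7% in that of Fabp2, against a median of 52.7% over all windows, and 74.0% in both the Acsl3 window and the first window of Acsl1. These matches describe the letters only, and binding was not measured.

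The deposited FPKM correspond to 15641545 to 23276323 fragments per library, and the 10 genes were covered by 58 (Fabp4) to 105253 (Acsl1) fragments in a library. Counting error, largest for Fabp4, was not separated from the spread between mice. Thbs1 was higher, not lower, under the knockout label on the control diet: it was listed at 0.058 to 0.326 FPKM in the 5 NDWT libraries and at 0.986 to 1.90 FPKM in the 5 libraries labelled NDKO (log2FC 2.28, FDR 1.02e-05), and at 3.46 to 6.10 and 3.05 to 4.40 FPKM on CDAHFD. The table has 1 value per gene, so reads from inside and outside a disrupted part of Thbs1 could not be told apart, and genotypes are given below as the libraries were labelled. The liver was checked by 8 hepatocyte markers, of which 7 were in the table and none was at 0 in any group. Their summed level was 38307 to 45287 FPKM in NDWT and 43329 to 50041 FPKM in NDKO, and on CDAHFD it was 30551 to 43966 FPKM in WT and 40776 to 52138 FPKM in mice labelled TSP-1 null. On CDAHFD the median of all tested genes lay higher by a log2FC of 0.53 in WT and 0.50 in mice labelled TSP-1 null, and the changes of the leading genes are also given relative to that median.

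On the control diet Fabp1 stood far above the other 9 genes. Its mean in NDWT was 6597 ± 564 FPKM (SD, n = 5), followed by Slc27a2 (588 ± 34.1), Acsl1 (390.0 ± 53.3), Acsl5 (127 ± 6.11), Fabp2 (123 ± 14.2), Slc27a1 (16.4 ± 3.42), Slc27a4 (12.3 ± 1.27), Fabp4 (8.32 ± 1.85), Acsl4 (7.64 ± 1.66) and Acsl3 (3.35 ± 0.949). In this order Acsl5 and Fabp2, Slc27a1 and Slc27a4, and Fabp4 and Acsl4 overlapped between mice, and the other neighbours were apart. The first 5 ranks were held by the same genes in the same order in all 4 groups, but in HFWT Acsl1 (77.5 ± 18.7 FPKM) was no longer apart from Acsl5 (73.6 ± 3.42), and Fabp4 had moved from eighth to the sixth rank. Together the 10 genes took 1.02% ± 0.0666 of all assigned fragments in NDWT and 0.786% ± 0.113 in NDKO, and on CDAHFD 0.348% ± 0.0590 in WT and 0.399% ± 0.0147 in mice labelled TSP-1 null.

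**Figure D1:**
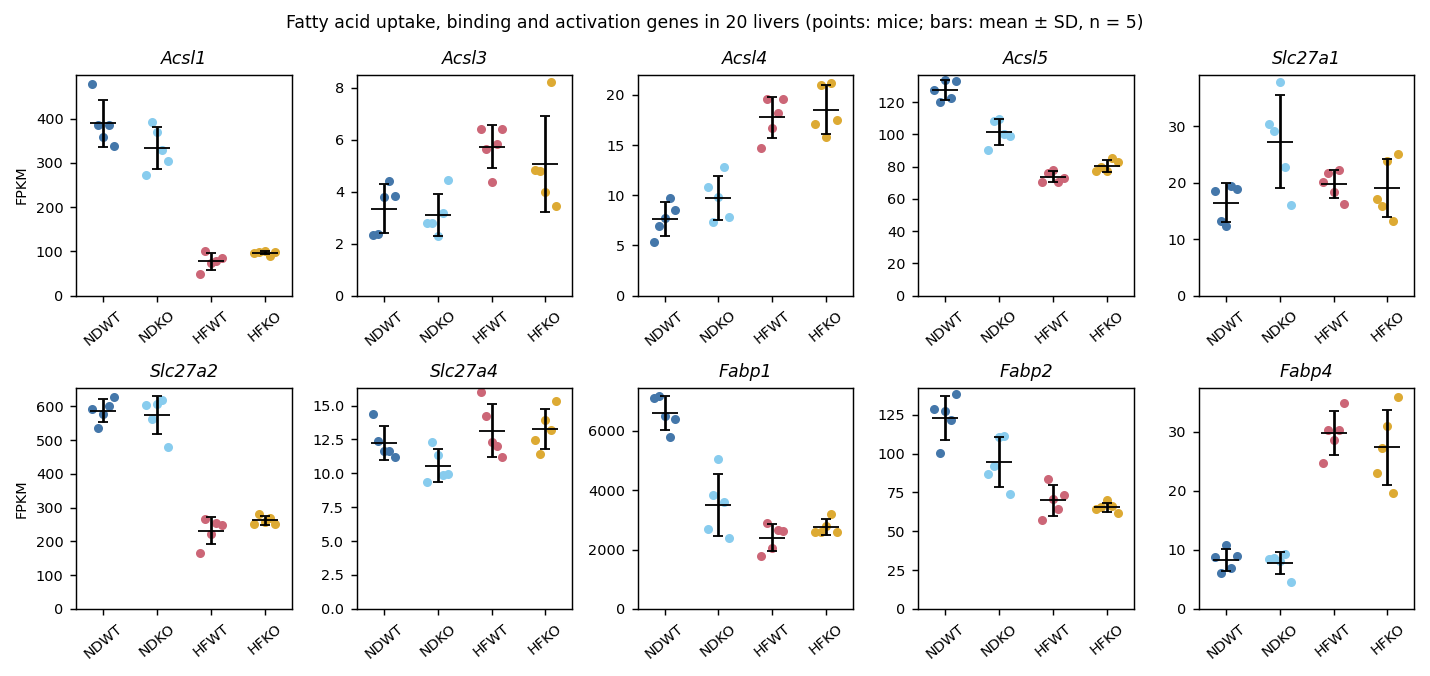
FPKM of the 10 genes in each of 20 livers by group, with 1 panel per gene and each linear axis starting at 0. Points are mice and bars the mean ± SD of 5. Fabp1, Slc27a2, Acsl1, Acsl5 and Fabp2 lay lower in HFWT than in NDWT, and Fabp4 and Acsl4 higher.

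The diet comparison asked how 12 weeks of CDAHFD changed these genes in either genotype. In WT mice the abundant genes fell, namely Acsl1, Fabp1, Slc27a2, Fabp2 and Acsl5, and the scarcer Fabp4, Acsl4 and Acsl3 rose. Acsl1 fell most, to 0.195 of its control level, and Fabp4 rose most, 3.60-fold. In mice labelled TSP-1 null Acsl1 and Slc27a2 fell and Fabp4, Acsl4 and Acsl3 rose. A gene was called with an FDR under 0.05 (limma, Benjamini-Hochberg over 14524 tested genes) and an absolute log2FC above 0.58, and all 10 genes passed the filter on low values.

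Of the 10 genes, 5 were called lower and 3 higher in WT, where 4.62% of all tested genes were called lower, 44.1% higher and 48.8% in either direction. In mice labelled TSP-1 null 2 were called lower and 3 higher, where the shares of all tested genes were 4.00%, 41.9% and 45.9%. The latter count rested in part on single libraries: without library 5 of NDKO 4 were called lower and 3 higher, and over all libraries left out 2 to 4 were called lower and 2 to 3 higher. The median log2FC of the 10 was −0.35 in WT and −0.32 in mice labelled TSP-1 null, against 0.53 and 0.50 over all tested genes. The groups of the diets lay wholly apart for 7 of the 10 genes in WT (5 lower, 2 higher), where 56.2% of tested genes did so (5.70% lower, 50.5% higher), and for 6 in mice labelled TSP-1 null (4 lower, 2 higher), where 57.8% did (5.03% lower, 52.7% higher). In bulk liver, fewer cells of a type and less RNA per cell cannot be told apart. Beside these changes the summed level of macrophage markers (9 of 10 listed were in the table) was 201 to 271 FPKM in NDWT and 983 to 1349 in HFWT, and 174 to 302 in NDKO and 624 to 1364 in HFKO. Most of the rise in WT was Lyz2 (44.6 ± 5.32 to 869.5 ± 99.3 FPKM). Of the 9 markers 6 were called higher and 1 lower in WT, and Clec4f fell from 67.5 ± 7.43 to 29.7 ± 8.79 FPKM. The ranges of the hepatocyte sum, of which Alb was the largest part, overlapped between the diets in both genotypes. Of its 7 markers, 2 lay wholly lower on CDAHFD in WT. In mice labelled TSP-1 null 3 lay wholly lower and 1 wholly higher. From NDWT to HFWT the cholangiocyte sum went from 15.2 to 18.0 up to 292 to 488 FPKM, the stellate sum from 15.0 to 21.3 up to 116 to 259 FPKM and the neutrophil sum from 1.92 to 5.07 up to 22.4 to 37.6 FPKM, and the sums of T cell and B cell markers were also higher without overlap. Most of the cholangiocyte sum was Spp1 (13.6 ± 1.27 FPKM in NDWT and 379 ± 86.1 in HFWT), also a marker of lipid-associated macrophages. All 5 tested cholangiocyte markers were called higher in WT. The part of cell composition in the results below was not tested.

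Among the transport proteins Slc27a2, which encodes the FATP2 of hepatocytes with very long-chain acyl-CoA synthetase activity, was the most abundant. Its FPKM was 593, 536, 579, 601 and 628 in NDWT and 166, 266, 222, 255 and 247 in HFWT. In mice labelled TSP-1 null it was 605, 564, 607, 619 and 481 in NDKO and 250.2, 282, 259, 268 and 252 in HFKO. All 10 CDAHFD libraries lay below all 10 control libraries, with the first HFWT library lowest. The fall passed the test in WT (log2FC −1.36, SE 0.10, FDR 7.14e-10) and in mice labelled TSP-1 null (log2FC −1.13, SE 0.10, FDR 1.13e-08), or −1.89 and −1.63 relative to the median gene. The first HFWT library also had the lowest hepatocyte sum of its group (30551 FPKM) and the highest stellate sum (259 FPKM), and the part of this in its low values was not tested.

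Slc27a1, which encodes the FATP1 known from muscle and fat, was 18.4, 13.2, 12.3, 19.4 and 18.9 FPKM in NDWT and 20.1, 21.8, 18.3, 22.2 and 16.3 in HFWT. In mice labelled TSP-1 null it was 30.4, 29, 37.8, 22.8 and 16.1 FPKM in NDKO and 17.1, 15.9, 23.9, 13.1 and 25.1 in HFKO. The diets overlapped in both genotypes, and Slc27a1 was not called in either (log2FC 0.28, FDR 0.237, and −0.50, FDR 0.0381, the latter under the fold threshold). The sign in WT turned under median of ratios scaling (−0.26) and quantile normalization (−0.08). Slc27a1 was called lower under both in mice labelled TSP-1 null (−1.02, FDR 0.000254, and −0.82, FDR 0.00158), and also without library 5 of NDKO (−0.68) or library 3 or 5 of HFKO (−0.59 and −0.61). Slc27a4, which encodes FATP4, was 14.4, 12.4, 11.7, 11.6 and 11.2 FPKM in NDWT and 16, 14.2, 12.3, 12 and 11.2 in HFWT. It was 9.35, 12.3, 11.3, 9.84 and 9.97 FPKM in NDKO and 12.5, 11.4, 14, 13.2 and 15.4 in HFKO. These groups overlapped, and Slc27a4 was not called (log2FC 0.09, FDR 0.421 in WT and 0.33, FDR 0.00841 in mice labelled TSP-1 null). Both signs turned under the other scalings, to −0.44 and −0.19 by median of ratios and −0.33 and −0.10 by quantile normalization.

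The binding proteins moved in opposite directions. Fabp1, the cytosolic fatty acid carrier of hepatocytes, was 7107, 7177, 6505, 5806 and 6392 FPKM in NDWT and 1787, 2896, 2047, 2653 and 2609.6 in HFWT. It was 2674, 3849.9, 5036, 3604 and 2403 FPKM in NDKO and 2599, 2575, 2789, 3192 and 2582 in HFKO. In WT the diets were wholly apart and Fabp1 fell to 0.359 of the control level (log2FC −1.48, 95% CI −1.83 to −1.13, FDR 1.81e-07), or a log2FC of −2.01 relative to the median gene. In mice labelled TSP-1 null all 5 HFKO libraries lay within the range of NDKO, and Fabp1 was not called (log2FC −0.31, 95% CI −0.66 to 0.04, FDR 0.104). The latter value depends on the scaling: it was −0.83 and called lower under median of ratios (FDR 0.000431) and 0.00 under quantile normalization.

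Fabp2, the intestinal type of FABP, which is also transcribed in mouse liver, was 129, 100.2, 127, 121 and 138 FPKM in NDWT and 57.1, 83.4, 70.7, 64.3 and 73.6 in HFWT. It was 86.7, 91.7, 111, 111 and 73.8 FPKM in NDKO and 64.1, 65.4, 69.8, 65.9 and 61.6 in HFKO. All 5 libraries lay lower on CDAHFD in both genotypes, and the fall was called in WT (log2FC −0.82, SE 0.11, FDR 2.37e-06) and stayed under the fold threshold in mice labelled TSP-1 null (log2FC −0.52, FDR 0.000408). There it was called lower under median of ratios scaling (−1.04, FDR 5.7e-07) and without library 5 of NDKO (−0.61, FDR 6.33e-05). Of 8 enterocyte markers 3 to 6 were at 0 in all libraries of a group, among them Alpi and Sis in all 4 groups, and nearly all of their summed level was Apoa4, which hepatocytes also express (346 to 1086 FPKM in NDWT and 423 to 648 FPKM in HFWT).

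Fabp4, the FABP of adipocytes and macrophages, rose. It was 8.77, 6.11, 10.8, 6.95 and 8.89 FPKM in NDWT and 24.7, 30.2, 28.7, 30.3 and 34.9 in HFWT. It was 8.44, 8.64, 8.06, 9.23 and 4.50 FPKM in NDKO and 23, 27.2, 31, 19.6 and 35.8 in HFKO. All CDAHFD libraries lay above all control libraries, and the rise was 3.60-fold (95% CI 2.72 to 4.75) in WT and 3.51-fold (2.66 to 4.63) in mice labelled TSP-1 null, with FDRs of 5.71e-08 and 8.65e-08 by limma, or a log2FC of 1.31 relative to the median gene in both. Of the 8 adipocyte markers Lep was at 0 in all 20 libraries and Adipoq was at 0 in HFWT, and their summed level was 18.7 to 59.1 FPKM in NDWT and 27.3 to 53.6 in HFWT. Most of that sum was Cidec (28.2 ± 13.5 FPKM in NDWT and 25.7 ± 9.64 in HFWT), and the part of adipocytes in it was not tested. The sum of 10 endothelial markers was 71 to 82.7 and 70.4 to 121 FPKM in the same groups, with overlap. In mice labelled TSP-1 null it was 61.3 to 79.1 FPKM in NDKO and 85.7 to 134 FPKM in HFKO, without overlap. Of the 9 endothelial markers tested, 3 were called higher on CDAHFD in WT and 5 in mice labelled TSP-1 null, and none lower in either. The macrophage sum is given above, and the part of these cells in the rise of Fabp4 was not tested. Fabp1 exceeded Fabp4 by a ratio of 828 ± 214 in NDWT and of 80.4 ± 10.8 in HFWT, which differ without overlap.

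The synthetases also divided. Acsl1, the main long-chain acyl-CoA synthetase of liver and fat, was 479, 386, 359.6, 386 and 339 FPKM in NDWT and 49.8, 101, 73.2, 78.5 and 84.6 in HFWT. It was 273, 393, 370.4, 329 and 304 FPKM in NDKO and 96.9, 99, 101, 90.4 and 98.4 in HFKO. Every CDAHFD library held less than every control library, and the first HFWT library held least. The log2FC was −2.36 (SE 0.14, FDR 3.38e-11) in WT and −1.77 (SE 0.14, FDR 2.08e-09) in mice labelled TSP-1 null, or −2.89 and −2.27 relative to the median gene.

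Acsl5, a synthetase of mitochondria and endoplasmic reticulum in liver and gut, was 128, 120.0, 134, 123 and 133 FPKM in NDWT and 70.6, 76, 78.1, 70.3 and 73 in HFWT. It was 90.1, 108, 109, 100.1 and 99 FPKM in NDKO and 77.3, 79.8, 77, 85.6 and 83.1 in HFKO. Its mice varied least of the 10 genes in NDWT and its diets were apart in both genotypes, but the fall was called only in WT (log2FC −0.79, SE 0.06, FDR 5.15e-10), as the log2FC of −0.33 (SE 0.06, FDR 4.89e-05) in mice labelled TSP-1 null was under the fold threshold. Under median of ratios scaling the latter was −0.85 and called.

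Acsl4, the synthetase that prefers arachidonic acid and is known for its part in ferroptosis, was 5.33, 6.88, 7.69, 9.70 and 8.57 FPKM in NDWT and 14.8, 19.6, 16.7, 18.2 and 19.6 in HFWT. It was 10.8, 7.36, 9.83, 12.8 and 7.88 FPKM in NDKO and 17.1, 20.9, 15.8, 21.2 and 17.5 in HFKO. The diets did not overlap and Acsl4 rose 2.34-fold in WT (95% CI 1.87 to 2.93, FDR 8.44e-07) and 1.92-fold in mice labelled TSP-1 null (1.53 to 2.41, FDR 2.33e-05), the latter with no call under median of ratios (log2FC 0.42) or quantile normalization (0.53). Acsl3, a synthetase of the endoplasmic reticulum and lipid droplets, was lowest of the 10, at 2.31, 2.36, 3.81, 4.40 and 3.84 FPKM in NDWT and 6.41, 5.66, 4.38, 5.83 and 6.41 in HFWT. It was 2.79, 2.80, 2.29, 3.20 and 4.45 FPKM in NDKO and 4.86, 4.79, 4.00, 8.22 and 3.47 in HFKO. In each genotype 1 control library reached into the range of CDAHFD, and the rise (log2FC 0.80, FDR 0.00313 in WT and 0.66, FDR 0.0116 in mice labelled TSP-1 null) was close to that of the median gene and lost its call under both other scalings, with a value of −0.01 in mice labelled TSP-1 null under quantile normalization. The call of Acsl3 in mice labelled TSP-1 null was also lost at a pseudocount of 1 (0.54), without library 3 of NDKO (0.56) and without library 4 of HFKO (0.47).

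**Figure D2:**
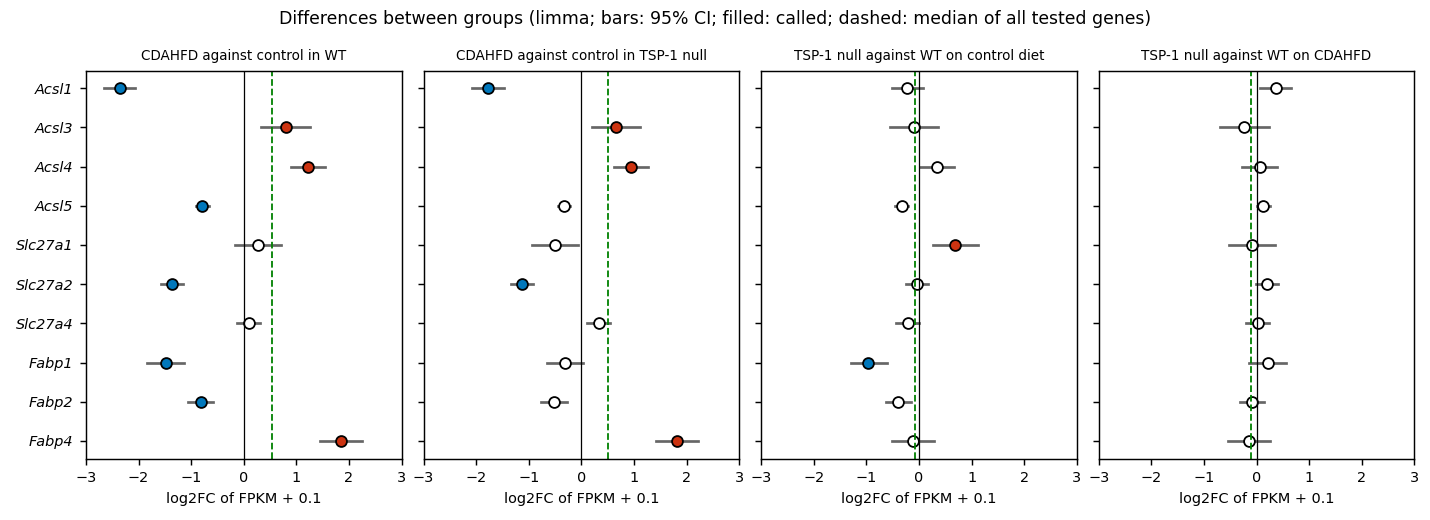
Log2FC of the 10 genes on the log2(FPKM + 0.1) scale in the 4 comparisons, with 95% confidence intervals. Red points were called higher, blue points lower and white points not called; the dashed line is the median of all tested genes (0.53, 0.50, −0.07 and −0.10 from left to right). Most calls stand in the diet panels, and the last panel holds none.

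The makeup of the acyl-CoA synthetase transcripts also differed between diets, a measure that a scaling factor per library cannot move. Acsl1 held 73.6% ± 3.13 of the summed FPKM of the Acsl genes in NDWT and 43.8% ± 5.55 in HFWT, and 74.3% ± 1.74 and 48.3% ± 2.59 in NDKO and HFKO. The share of Acsl5 was 24.3% ± 2.67 and 42.6% ± 4.95 in WT, although its own level fell, and that of Acsl4 was 1.47% ± 0.393 and 10.2% ± 0.482. No library of one diet reached the range of the other for any of these 3 shares in WT. The sum over the Acsl genes was 528 ± 49.9 FPKM in NDWT and 448 ± 55.0 FPKM in NDKO, against 175 ± 22.1 FPKM in HFWT and 201 ± 4.20 FPKM in HFKO. Acsl6, also counted, held at most 0.0120% in any library.

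**Figure D3:**
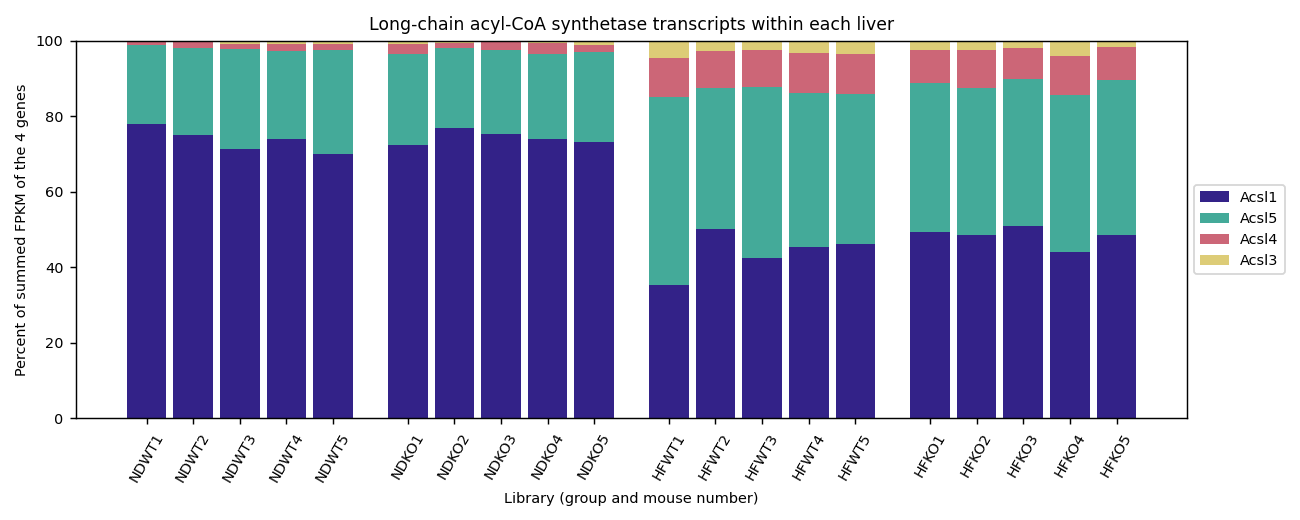
Share of Acsl1, Acsl5, Acsl4 and Acsl3 in their summed FPKM (y axis, percent) in each of the 20 libraries (x axis). Acsl1 made up at least 70.0% in every NDWT library and on average 43.8% in HFWT, and the share of Acsl4 grew from 0.869% to 1.85% in NDWT to 9.65% to 10.7% in HFWT.

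Among the transport proteins Slc27a2 held 56.9% ± 2.81 of the summed FPKM of the Slc27a genes in NDWT and 48.9% ± 4.80 in HFWT, and Slc27a5, the bile acyl-CoA synthetase that is the other abundant member in liver, held 40.2% ± 2.88 and 43.7% ± 3.80. The range of the Slc27a2 share did not overlap between the diets in WT (53.0% to 59.8% and 40.4% to 51.9%), and that of Slc27a5 did. In mice labelled TSP-1 null the Slc27a2 share was 52.2% ± 2.73 in NDKO and 51.0% ± 2.35 in HFKO. There its ranges overlapped (48.9% to 56.5% and 48.5% to 54.1%). The sum over the Slc27a genes was 1033 ± 41.9 FPKM in NDWT and 471 ± 40.7 in HFWT. Among the Fabp genes, Fabp1 held 97.9% ± 0.276 in NDWT and 94.4% ± 0.720 in HFWT, and 96.9% ± 0.532 and 95.7% ± 0.624 in NDKO and HFKO.

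The genotype comparison on the control diet asked what the knockout changed without the disease diet. Fabp1 was lower and Slc27a1 higher in the libraries labelled NDKO than in NDWT, on the diet on which Thbs1 was also higher under the knockout label. These were 2 of the 10 genes, where 4.77% of all tested genes were called (3.03% lower, 1.74% higher; 440 and 253 genes, or 328 and 349 under median of ratios scaling), and the median log2FC of the 10 was −0.16 against −0.07 over all tested genes. Fabp1 was at 0.516 of the NDWT level (log2FC −0.96, SE 0.17, FDR 0.00128), and the highest NDKO library (5036 FPKM) lay below the lowest NDWT library (5806 FPKM). It was called in all 32 alternatives, with a log2FC of −1.10 to −0.83. The hepatocyte marker sum given above lay at or above 43329 FPKM in NDKO and at or below 45287 FPKM in NDWT, with overlap. Most of it was Alb (25052 ± 2899.9 FPKM in NDWT and 27881 ± 3397 in NDKO). Of its 7 markers 1 was called higher in the libraries labelled NDKO and none lower. The part of hepatocyte content in the level of Fabp1 was not tested.

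Slc27a1 was 1.62-fold higher in the libraries labelled NDKO (log2FC 0.69, SE 0.21, FDR 0.0338), but the groups overlapped, since the fifth NDKO library (16.1 FPKM) lay within the range of NDWT. Its call was lost in 8 of 32 alternatives, among them leaving out library 2 or 3 of NDWT or library 1, 2 or 3 of NDKO (FDR 0.0655 to 0.0954). Acsl5 and Fabp2 were also lower with an FDR under 0.05 but under the fold threshold. Acsl5 was at 0.795 of the NDWT level, with its groups wholly apart as were those of Fabp1 (log2FC −0.33, FDR 0.00132), while 9.03% of tested genes were apart in this comparison (6.69% lower, 2.33% higher). Fabp2 had a log2FC of −0.39 (FDR 0.0293) with overlap. The other 6 genes had log2FCs of −0.23 (Acsl1) to 0.34 (Acsl4) and FDRs of 0.158 or more by limma. Slc27a2 and Slc27a4 lie on the chromosome of Thbs1, at 8.43 and 88.29 Mb from it, and had log2FCs of −0.03 and −0.21. The fifth NDKO library was the lowest of its group for Slc27a1, Slc27a2, Fabp1, Fabp2 and Fabp4, and it also had the lowest adipocyte sum (11.6 FPKM against 43.3 or more in the other 4 libraries), and the part of this in the results was not tested. Most of the adipocyte sum was Cidec (33.0 ± 17.4 FPKM in NDKO), while Adipoq, Lep, Plin1 and Retn were at 0.105 FPKM or less in NDKO.

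On CDAHFD none of the 10 genes was called between the libraries labelled HFKO and HFWT by limma, where 0.496% of all tested genes were (48 lower and 24 higher, or 39 and 65 under quantile normalization). Acsl1 had a log2FC of 0.36 (95% CI 0.06 to 0.66, FDR 0.200) and Acsl5 one of 0.13 (95% CI 0.01 to 0.25, FDR 0.258), with overlap between the groups in both. None of the 10 genes had groups wholly apart, where 4.98% of tested genes did (4.13% lower, 0.847% higher). The log2FC of the others ranged from −0.23 (Acsl3) to 0.21 (Fabp1, 95% CI −0.14 to 0.56). The median of the 10 was 0.04 against −0.10 over all tested genes. Thbs1 itself overlapped between the labels here (log2FC −0.39, FDR 0.408). The spread differed between the groups for Acsl1, with a coefficient of variation of 24.2% in HFWT and 4.07% in HFKO.

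Whether the diet effect depended on genotype was tested by the interaction term (the log2FC of the diet in mice labelled TSP-1 null minus that in WT), which rests on the same labels. Of the 10 genes, 1 was called, Fabp1 (interaction log2FC 1.17, SE 0.24, FDR 0.0257), where 0.647% of all tested genes were (0.337% higher, 0.310% lower). The diet log2FC of Fabp1 was −1.48 in WT and −0.31 in mice labelled TSP-1 null, and its 4 group means were 6597 (NDWT), 3513 (NDKO), 2398 (HFWT) and 2747 FPKM (HFKO). Without library 3 of HFWT the FDR was 0.0516 and without library 4 of HFKO 0.0533, and without a filter on low values 0.0792. The log2FC lay between 1.05 and 1.31 in all 31 alternatives. Acsl5 had the same order of groups (127, 101, 73.6 and 80.6 FPKM) and an interaction FDR of 0.0146 with a log2FC of 0.46, under the fold threshold. For the other 8 genes the interaction had FDRs of 0.164 (Acsl1, log2FC 0.59) to 0.970 (Fabp4, log2FC −0.04).

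Genes that act beside the 10 were counted from lists of general knowledge, and are to be read against the called shares given above and, on CDAHFD, against the medians of 0.53 and 0.50 over all tested genes. Of 8 other genes of long-chain fatty acid uptake, all tested, 5 were called higher and 1 lower on CDAHFD in WT and as many in mice labelled TSP-1 null, with medians of 0.84 and 0.68. Lipoprotein lipase (Lpl) rose from 3.39 ± 0.789 to 68.2 ± 8.13 FPKM in WT (log2FC 4.31, and 3.73 in mice labelled TSP-1 null). The scavenger receptor and fatty acid translocase Cd36 rose from 28.0 ± 11.7 to 102 ± 17.3 FPKM (log2FC 1.95, FDR 2.52e-06), and from 12.0 ± 5.54 to 86.3 ± 7.08 FPKM in mice labelled TSP-1 null (2.94, FDR 1.30e-08). The gene called lower was Slc27a5 (416 ± 35.4 to 205 ± 5.93 FPKM in WT, log2FC −1.02 and −1.16). On the control diet Cd36 was lower in the libraries labelled NDKO (log2FC −1.21, FDR 0.00619), and no gene of the list was called between genotypes on CDAHFD or in the interaction. Under median of ratios scaling 3 were called higher and 3 lower in WT, and under quantile normalization 2 and 2, with Lpl, Cd36 and Slc27a5 called in the same direction in both. Lpl is also one of 6 markers of lipid-associated macrophages, whose summed level was 20.2 to 24.6 FPKM in NDWT and 714 to 907 in HFWT.

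Of 10 other lipid binding genes 8 were tested, and 3 were called higher and 1 lower in WT, and 3 and 2 in mice labelled TSP-1 null (medians −0.38 and 0.05). Among the higher ones were Fabp7 (log2FC 2.00 and 1.83) and Fabp5 (2.08 and 2.59), and the sterol carrier Scp2 was lower in both (−0.85 and −0.72), but not called under quantile normalization (−0.20 and −0.03). Under median of ratios scaling 3 of these genes were called higher and 5 lower in WT, and 3 and 4 in mice labelled TSP-1 null. Dbi, the acyl-CoA binding protein, was called in the interaction (log2FC 0.66, FDR 0.0299). Of 14 other acyl-CoA synthetases 9 were tested, and 1 was called higher and 2 lower in WT, and 2 and 1 in mice labelled TSP-1 null (medians −0.19 and −0.09). This balance depended on the scaling, with 1 called higher and 5 lower in each genotype under median of ratios scaling, and 1 and 3 in each under quantile normalization. Among them the mitochondrial acetate enzyme Acss1 rose (log2FC 2.97 and 2.13), Acss3 fell (−1.11 and −0.68) and the medium-chain enzyme Acsm3 fell in WT (−0.76). Acss3 was also lower in the libraries labelled NDKO (log2FC −0.75, FDR 0.0169), with no call under quantile normalization (−0.63, FDR 0.064).

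The transcription factors that act on these genes were counted as a list of 12, all tested, with 4 called higher and 1 lower in WT and 3 and 1 in mice labelled TSP-1 null (medians −0.17 in both). Ppara, the receptor for fatty acids in hepatocytes, was the one that fell (76.6 ± 12.0 to 32.9 ± 6.05 FPKM in WT, log2FC −1.22, and −0.65 in mice labelled TSP-1 null), and Pparg (1.52 and 2.20), Srebf1 (1.5 and 1.24) and Ppard (0.92 and 0.59) rose in both, of which Ppard lost its calls under both other scalings and was −0.10 in mice labelled TSP-1 null under quantile normalization. On the control diet the coactivator Ppargc1a was higher (log2FC 1.28, FDR 0.00219) and Pparg lower (−0.75, FDR 0.0114) in the libraries labelled NDKO. Of 16 genes known to respond to PPARα, 15 were tested and 12 were called lower and none higher in WT, and 8 and none in mice labelled TSP-1 null, with medians of −1.02 and −0.59. Under median of ratios scaling 13 were called lower in each genotype, and under quantile normalization 11 and 7. The thioesterase Acot1 (log2FC −4.22 and −2.78) and the hydroxylase Cyp4a10 (−2.76 and −2.38) fell in both. Of the 15, only Vnn1 was called on the control diet, lower in the libraries labelled NDKO (log2FC −1.35, FDR 0.00170), and none was called between genotypes on CDAHFD or in the interaction, where their medians were 0.24 and 0.43 and Vnn1 had an interaction FDR of 0.0666 by limma.

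Genes most like the leading member of each family from mouse to mouse were found with the mean of each group taken off, over 20 libraries. For Acsl1 these were Slc25a20, the mitochondrial carnitine carrier (r = 0.92), and Gm4952 (0.90). For Slc27a2 they were Cyp4a31 (0.90), Decr2 (0.87) and Elovl2 (0.87). For Fabp1 they were Dhrs4 (0.88), Bdh1 (0.84) and Acaa1b (0.83). These coefficients describe log2 FPKM of libraries that share depth and scaling within a sample, and no test was made of them.

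The direction of the diet effect on the less changed genes depended on how the libraries were scaled. Under median of ratios scaling 5 of the 10 genes were called lower and 2 higher in WT, and 6 lower and 1 higher in mice labelled TSP-1 null. Under quantile normalization it was 5 and 2, and 3 and 1. Over all tested genes the calls in WT were 6412 higher and 671 lower as deposited, 3351 and 2145 under median of ratios scaling, and 2514 and 2562 under quantile normalization. In mice labelled TSP-1 null they were 6088 and 581, 3283 and 1921, and 2421 and 2186. Acsl1, Slc27a2, Fabp1, Acsl5 and Fabp2 in WT, and Acsl1 and Slc27a2 in mice labelled TSP-1 null, were called lower in all 32 alternatives, and Fabp4 in both and Acsl4 in WT were called higher in all of them.

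**Figure D4:**
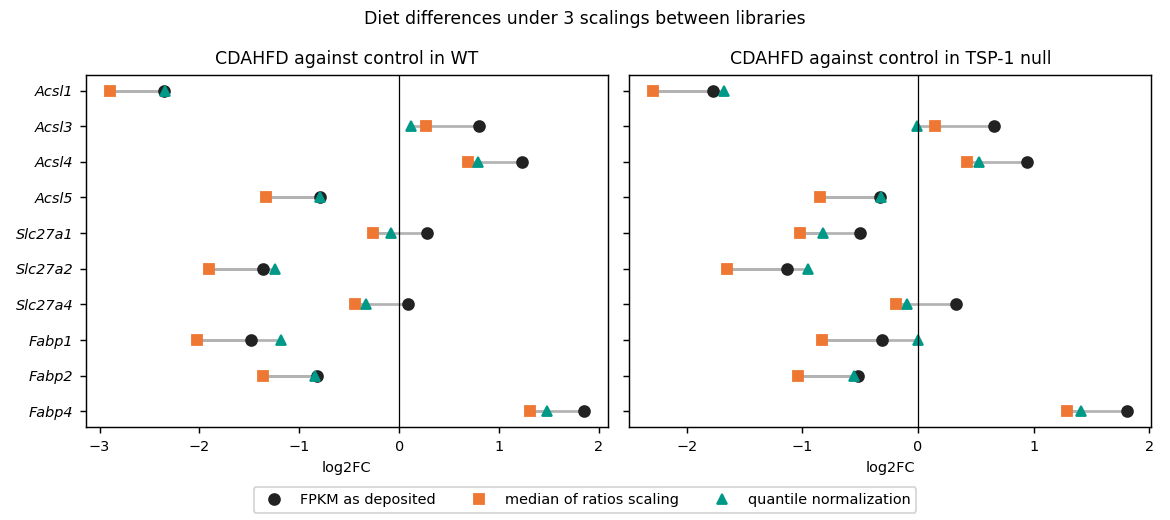
Log2FC (x axis) of CDAHFD against control for the 10 genes under FPKM as deposited (circles), median of ratios scaling (squares) and quantile normalization (triangles), in WT (left) and in mice labelled TSP-1 null (right). Median of ratios scaling moved all genes to the left; in WT the sign changed for Slc27a1 and Slc27a4, whereas Acsl1 (−2.36) and Fabp4 (1.85) stayed on their side of 0.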

How the data were processed

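Liver mRNA of 20 mice was sequenced as paired 150 base reads with a stranded kit, and which strand setting was used for counting is not given in the sources used here. Per the labels, STAR 2.5.2 and featureCounts of Subread 1.5.1 were used; the submitters' processing notes name GRCh38, whereas the table's coordinates are those of mouse GRCm38 (99.8% of 37607 identifiers shared with GENCODE M21 lay on the same gene). The deposited values are FPKM, which the authors computed per gene with division by library size and without further scaling between libraries. The study places the samples in the right lateral lobe and the series description in the right medial lobe.

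Fragments were recovered from FPKM and gene length, with at least 99.95% whole within 0.1 fragment. A count of 3 fragments on a gene of 1 kb equals 0.129 to 0.192 FPKM, which covers counting error only. Libraries of a group differed by a chi-square of at least 13.0 per degree of freedom, so none was a copy of another in its group. This check was not made between groups.

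The 14524 genes above 0.5 FPKM in 5 or more libraries were tested with limma 3.58.1 in R 4.3.3 on log2(FPKM + 0.1), with a mean per group, all 20 libraries in 1 fit and a trended eBayes. Calls needed an FDR (Benjamini-Hochberg, two-sided) under 0.05 together with an absolute log2FC above 0.58, the study's thresholds. This scale understates the changes of low genes. The script was tested on simulated data. Python 3.11.15 with pandas 2.3.3, numpy 2.4.6 and, for the figures, matplotlib 3.10.9 did the rest.

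The members, lists and tests were chosen with earlier results of these data known. All 10 members are named, as well as up to 4 genes of each list with the lowest FDR in a comparison and up to 3 genes most similar to the leading member of each family; a few genes that this rule names are not reported here. Alternatives were pseudocounts of 0.01 and 1, 3 other filters (none, above 1 FPKM in 5 libraries, a mean above 0.5), median of ratios scaling, quantile normalization, dropping the fold threshold, fitting the 2 groups of a comparison alone, untrended and robust eBayes, a replicate block, and leaving out each library.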

Additional observations from a re-analysis of the deposited data

Results flagged for a closer look

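The effect of genotype differed between the diets for Fabp1, with an interaction log2FC of 1.17 (limma, FDR 0.0257), and for Acsl5, with 0.46 (FDR 0.0146), which is under the fold threshold. Both were lower in all 5 libraries labelled NDKO than in all 5 of NDWT, and overlapped between HFKO and HFWT. Of 40 sets of 5 values (10 genes in 4 groups), 1 held a library far from the rest by Dixon's criterion (0.71 for 5 samples): Fabp4 in the fifth NDKO library, at 4.504 FPKM. By chance about 1 in 20 sets would be marked in this way. Without that library the log2FC of Fabp4 between the libraries labelled NDKO and NDWT was 0.07 in place of −0.11, and neither was called.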

How the results depend on the processing

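Over the alternatives 1525 of 1590 recomputed log2FCs of the 10 genes kept direction and call, 30 changed sign, 16 gained a call and 19 lost one. Under median of ratios scaling the log2FC turned to −0.26 (Slc27a1) and −0.44 (Slc27a4) for the diet in WT, −0.19 (Slc27a4) for the diet in mice labelled TSP-1 null, 0.04 (Slc27a2) for genotype on the control diet, and 0.01 for both Slc27a1 and Fabp2 for genotype on CDAHFD. Under quantile normalization it turned to −0.08 (Slc27a1) and −0.33 (Slc27a4) in WT, and to −0.01 (Acsl3), −0.10 (Slc27a4) and 0.00 (Fabp1) in mice labelled TSP-1 null. Median of ratios scaling shifts the log2FCs of a comparison nearly alike by its construction, and for quantile normalization the cause was not tested. With single libraries left out, values near 0 changed sign: the interaction of Fabp4 ranged from −0.22 to 0.07, the genotype log2FC on the control diet from −0.23 to 0.02 for Acsl3, −0.07 to 0.03 for Slc27a2 and −0.21 to 0.07 for Fabp4, and on CDAHFD from −0.01 to 0.11 for Acsl4, −0.04 to 0.09 for Slc27a4 and −0.20 to 0.04 for Slc27a1. The number of the 10 genes called between genotypes on the control diet fell from 2 to 1 without a filter, with only the 2 groups compared and under the replicate block (each without Slc27a1), rose to 4 without a fold threshold, and was 1 to 2 with a library left out. The interaction count was 0 without a filter, 2 without a fold threshold and 0 to 1 with a library left out. For the diet in mice labelled TSP-1 null 9 genes were called without a fold threshold and 4 to 7 with a library left out (7 without library 5 of NDKO), against 5. In WT 8 were called in each of these settings, and 7 under median of ratios scaling and under quantile normalization. Mice share the numbers 1 to 5 across groups, but of 30 pairs of equal numbers none had a correlation of deviations above 0.1 (−0.13 to 0.08) and 8 correlated best with their own number, so they were not treated as pairs, and the replicate block changed no other call of the 10 genes (8, 5, 0 and 1 called for the diet in WT and in mice labelled TSP-1 null, for genotype on CDAHFD and for the interaction). Over all genes the calls in the interaction were 94, with 54 without a filter and 36 to 184 with a library left out. Between genotypes they were 693 on the control diet, with 393 at a pseudocount of 1 and 1899 without a fold threshold, and 72 on CDAHFD, with 127 without a filter, 163 without a fold threshold, 40 with only those 2 groups and as few as 38 with a library left out. For the diet in mice labelled TSP-1 null 6669 became 10406 without a fold threshold. Each gene had at least 58 fragments in each library, and the share of counting error in the spread, largest for Fabp4 (58 to 125 fragments in NDKO), was not separated.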
